A study of Mus musculus with 4 samples.

Results

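The comparison described here set reporter-sorted stromal cells of mouse hindlimb lymphatic vessels and veins against stromal cells sorted without the reporter. Stromal cells were taken as droplets with at least 20 unique molecular identifiers (UMIs, counted mRNA molecules) of Dcn per 10000 UMIs, no UMI of Ptprc and at most 10% mitochondrial UMIs. Dcn encodes decorin, a matrix proteoglycan of fibroblast-like cells, and Ptprc encodes the leukocyte surface protein CD45. The rule kept 732 of 1504 cells of the first tdT library (tdT1), 241 of 454 cells of the second (tdT2) and 2109 of 5488 cells of the wild-type library (WT). These are 3082 of the 10837 cells of the series, and the fourth library, TNF-Tg, gave 1094 stromal cells of 3391 and served as a second reference.

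Each library pooled the popliteal lymphatic vessels and superficial saphenous veins of 3 mice on a C57BL/6J background. The tdT libraries came from male and female Cspg4-Cre+/-;Ai9-tdTomato+/- mice older than 8 months, and held DAPI- cells sorted on tdTomato fluorescence. Males gave the WT and the TNF-Tg library, at 9 months of age by the labels and without Cre or reporter. The TNF-Tg males carried a TNF transgene. Cells of WT and TNF-Tg were also sorted, on high forward or side scatter or both and on exclusion of DAPI. WT was thus unsorted only with respect to the reporter. The tdT1 library was made through a narrower nozzle, sequenced on a NextSeq and counted with Cell Ranger 3.1.0 against its own gene list. The other libraries shared the wider nozzle, the NovaSeq and Cell Ranger 6.0.1. Reporter sort, genotype, sex and day of experiment change together between tdT and WT and cannot be told apart by this design.

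Cspg4 encodes NG2, a proteoglycan of pericytes and other mural cells. Cre recombinase driven by Cspg4 removes a stop cassette before tdTomato for good, so the reporter marks a cell that expresses Cspg4 or had an ancestor that did. Popliteal lymphatic vessels carry lymph from the foot and are wrapped by lymphatic muscle cells (LMCs), and the saphenous vein has vascular smooth muscle cells (VSMCs). Fibroblast-like cells of the vessel wall make collagen, elastic fibres and signals to leukocytes.

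Summed over stromal cells, tdT1 held 10613575 UMIs and tdT2 1331169, against 30298936 in WT and 13428359 in TNF-Tg, with medians of 5462 to 15583.5 UMIs per cell. Median mitochondrial shares were 2.35%, 1.14%, 1.09% and 1.01%. No barcode was shared between stromal cells of different libraries. The lowest Dcn level inside the rule was 20.4, 31.8 and 20.9 UMIs per 10000 in tdT1, tdT2 and WT, and the highest outside it 18.9, 19.5 and 19.3. Levels below are counts per 1000000 UMIs (CPM) of these sums, scaled by the trimmed mean of M-values (TMM), and 12409 of the 30406 gene IDs shared by the libraries passed the filter on low counts.

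The selected cells had the markers of stromal fibroblasts in the 3 libraries and next to no RNA of the smooth muscle genes Acta2, Myh11 and Tagln. The 12 stromal identity genes, such as Col1a1, Col3a1 and Pdgfra, summed to 38178 CPM in tdT1, 36089 CPM in tdT2 and 40700 CPM in WT. Their median log2 ratio to WT was 0.04 in tdT1 and 0.04 in tdT2, beside 0.00 and -0.03 over the genes tested. None of the 12 was 2-fold from WT in tdT1, while in tdT2 2 were at least 2-fold higher and 2 at least 2-fold lower. Over the genes tested those shares in tdT2 were 8.7% and 6.79%. Acta2, smooth muscle actin, had 3, 1 and 8 UMIs in the whole stromal sums of tdT1, tdT2 and WT. Myh11, the smooth muscle myosin heavy chain, had 8, 0 and 9 UMIs. Tagln had 6, 0 and 5 UMIs, and Actg2 and Myocd had none. Of the 21 contractile smooth muscle genes 14 passed the filter, among them widely used cytoskeletal genes such as Myl6. None was 2-fold apart from WT in both tdT libraries. The paper also reports limited RNA of Acta2, Myh11 and Tagln. Cald1 and Tpm1, by which with Pdgfrb and other evidence the paper marks its muscle clusters, were present. In tdT1, tdT2 and WT Cald1 had 300, 249 and 300 CPM, and Tpm1 had 52.3, 73.5 and 57.4 CPM.

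The reporter transcript was found in tdT2 and not in WT, and Cspg4 itself was higher in tdT2 alone. In tdT2 the tdTomato transcript had 90 UMIs in 62 of 241 stromal cells, or 25.7% (95% Clopper-Pearson interval 20.3 to 31.7). Among Ptprc-positive cells of tdT2 it was found in 18 of 145, or 12.4% (7.53 to 18.9), at a median depth of 4888 UMIs against 5462 in stromal cells. The WT stromal cells held no tdTomato UMI, 0 of 2109 cells, which allows a share of cells with a UMI of up to 0.142%. The share with a UMI in tdT2 shows that most sorted cells held none, so that neither share counts cells that express the reporter. The transcript was not listed in the gene list of tdT1. Cspg4 had 36 UMIs in tdT1, 11 in tdT2 and 69 in WT, which gave 3.40, 7.93 and 2.37 CPM. Its log2 ratio to WT was 1.74 in tdT2 (0.68 to 2.67) and 0.52 in tdT1 (-0.10 to 1.12). Within tdT1 it was 1.501 (0.66 to 2.27) in the Xist cells described below and -0.08 (-0.96 to 0.72) in the Y cells. Intervals and limits from counts cover counting error alone, since 1 WT library gives no spread between mice.

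The sexes of the pools differed among the 3 libraries. Xist, the non-coding RNA that silences one X chromosome in female cells (X:103460366-103483254 in GRCm38), had 2710 UMIs in tdT1, 576 in tdT2 and 5 in WT. The Y-linked genes Ddx3y, Eif2s3y, Kdm5d and Uty together had 1466 UMIs in tdT1, 0 in tdT2 and 4238 in WT. Thus tdT1 held RNA of both sexes, tdT2 showed female RNA with no Y-linked UMI, and WT was male as labelled. In tdT1 the sex-linked genes divided the cells: 423 stromal cells had a Y-linked UMI and none of Xist (Y cells), 197 had Xist and no Y-linked UMI (Xist cells), 6 had both and 106 had neither. The Y cells are a reporter-sorted counterpart of the same sex as WT, and results below are given for them as well where they bear on a gene. Their median depth was 17462 UMIs against 14733 in WT, and their makeup, given below, also differed from WT.

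A gene was called apart when its CPM ratio to WT was at least 2-fold in the same direction in tdT1 and in tdT2 and both exact 95% counting intervals excluded a ratio of 1. Both ratios use the same WT library, so a WT value that is off moves them together. In these sums a larger share of expressing cells and more RNA per cell cannot be told apart. By this rule 251 genes (2.02% of those tested) were higher and 101 (0.814%) were lower in both tdT libraries. Taken singly, tdT1 was higher for 716 genes (5.77%) and lower for 601 (4.84%), and tdT2 for 692 (5.58%) and 554 (4.46%). Opposite ways were seen for 14 genes (0.113%) higher in tdT1 and lower in tdT2, and 28 (0.226%) the other way round. The tdT libraries differed from each other as widely, with 715 genes (5.76%) 2-fold higher in tdT1 than in tdT2 and 690 (5.56%) lower. The quasi-likelihood test of edgeR, with 1 residual degree of freedom and WT assumed to vary like the tdT libraries, called 3 genes higher (0.0242%) and 9 lower (0.0725%) at an adjusted p under 0.01, and 321 (2.59%) and 181 (1.46%) at an unadjusted p under 0.05. The counts by size are therefore a description of these libraries, and edgeR made no call under total-UMI scaling or without cells that held at least 5 leukocyte UMIs. At an unadjusted p under 0.05 these settings gave 297 genes higher and 132 lower, and 325 higher and 149 lower.

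**Figure D1:**
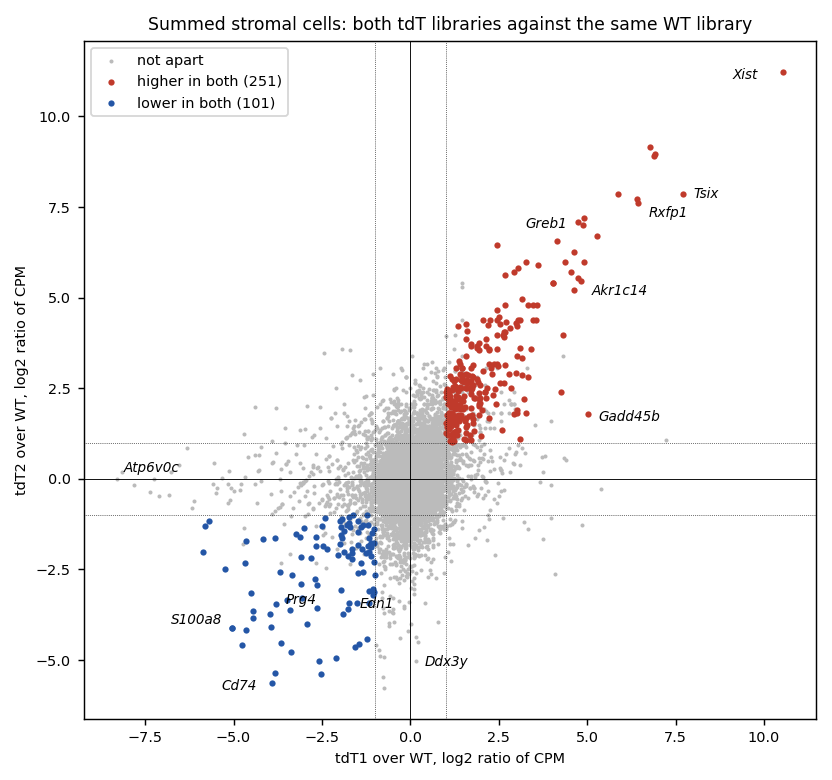
Each point is 1 of the tested genes, with the log2 ratio of tdT1 to WT on the horizontal axis and that of tdT2 to WT on the vertical axis. The 251 genes higher in both libraries are red and the 101 lower in both are blue, dotted lines mark 2-fold, and a gene such as Atp6v0c on the left lies far from WT in tdT1 alone.

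The 15 genes with the firmest higher ratios, read from the bound of the interval nearest 1, included hormone, nitric oxide and neurotrophin receptors, and in tdT1 most of their UMIs sat in the Xist cells, with the exception of Fmod. After Xist came Rxfp1, the receptor of the hormone relaxin, with 95 UMIs in tdT1 (8.96 CPM), 28 in tdT2 (20.2 CPM) and 0 in WT and TNF-Tg. It was 87.0-fold and 196-fold higher than WT when the 0 UMIs of WT were set to 3. The 95% lower bounds of its log2 ratios were 6.12 and 7.22. Both tdT libraries were thus above both scatter-sorted libraries. Its UMIs came from 15 cells of tdT1 and 9 of tdT2. Within tdT1 the Xist cells held 87 of them and the Y cells none.

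Akr1c14, a hydroxysteroid dehydrogenase that inactivates dihydrotestosterone, had 18.4 CPM in tdT1, 28.8 in tdT2, and 0.652 in WT against 0.247 in TNF-Tg. Both tdT libraries were above both scatter-sorted libraries, by 28.2-fold and 44.2-fold over WT (edgeR adjusted p = 0.0038). In tdT1 its level was 60.7 CPM in Xist cells and 0.841 CPM in Y cells, and the Y cells did not differ from WT beyond counting error (log2 ratio 0.37, interval -1.25 to 1.75). Reads of Akr1c14 could be shared with close paralogs of the Akr1c cluster, whose separation by the counting was not checked. Greb1, known as an early estrogen-responsive gene, had 64 UMIs in tdT1, 37 in tdT2 and 6 in WT, and its ratios were 29.3-fold and 129-fold. Xist cells of tdT1 held 57 Greb1 UMIs and Y cells held 0.

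Gucy1a1 and Gucy1b1 encode the subunits of soluble guanylate cyclase, the receptor of nitric oxide in smooth muscle and pericytes, and lie next to each other on chromosome 3 (82092427-82145789 and 82032006-82074689, minus strand). Gucy1a1 had 44, 24 and 1 UMIs in tdT1, tdT2 and WT. Gucy1b1 had 43, 22 and 2 UMIs. Both genes were higher in both tdT libraries than in WT, with 4.15 and 17.3 CPM against 0.0343 for Gucy1a1 and 4.06 and 15.9 against 0.0687 for Gucy1b1. In tdT1 42 of the Gucy1a1 UMIs and 37 of the Gucy1b1 UMIs were in Xist cells, against 1 and 6 in Y cells. For Gucy1b1 the Y cells were still 2-fold over WT with an interval off 1, and for Gucy1a1 no ratio was read at 1 UMI on each side. Their edgeR adjusted p-values were 0.027 and 0.040, past 0.05 and not past 0.01.

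Ngfr, the p75 neurotrophin receptor, had 7.36 CPM in tdT1, 37.5 in tdT2, and 0.275 in WT against 0.659 in TNF-Tg. It was 26.8-fold and 136-fold over WT, with 68 UMIs in Xist cells and 4 in Y cells of tdT1. Cldn11, a tight junction claudin, had 62 UMIs in tdT1, 20 in tdT2 and 2 in WT. The Y cells of tdT1 were also above WT for Cldn11, with 9 UMIs and 1.26 CPM against 0.0687 CPM. Plekha6 had 43, 23 and 1 UMIs in tdT1, tdT2 and WT, and Clvs2 had 18, 6 and 0, with 34 and 17 of the tdT1 UMIs in Xist cells.

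Further genes of this group were Tsix, Notch3, Heyl and Fmod. Tsix, the antisense partner of Xist, overlaps it on the other strand, and its 76, 11 and 1 UMIs cannot be told from Xist unless counting used strand, which was not checked. Notch3, the Notch receptor of mural cells, had 34, 10 and 4 UMIs in tdT1, tdT2 and WT, and Heyl, a Notch target, had 36, 7 and 4. Both were also 2-fold higher than WT in the Y cells, at 1.82 CPM against 0.137 for Notch3 and 1.40 against 0.137 for Heyl. Fmod, a tendon and cartilage proteoglycan, had its 49 tdT1 UMIs in 1 cell and its 11 tdT2 UMIs in 3 cells.

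**Figure D2:**
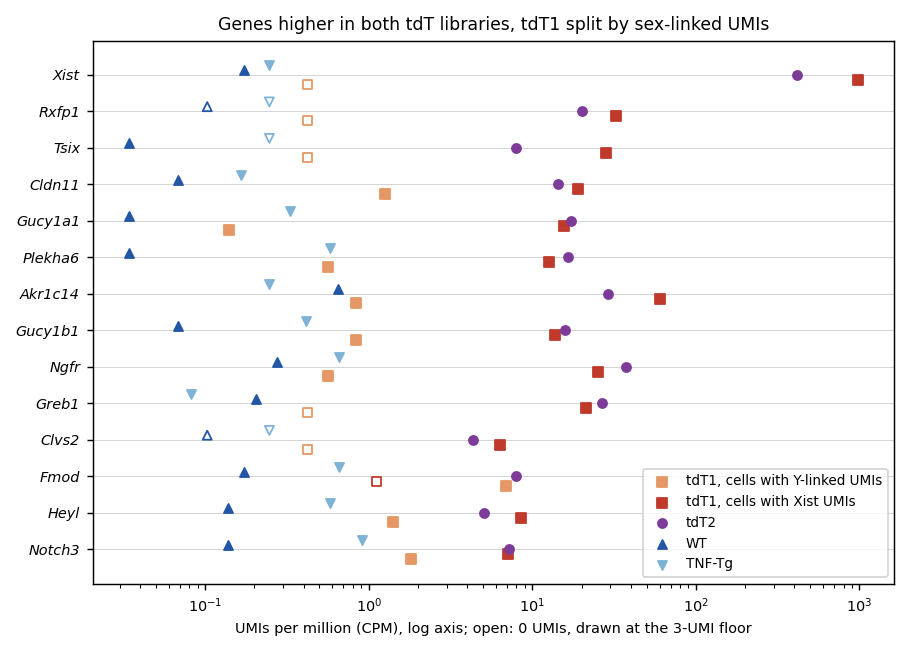
Each row is a gene from among those with the firmest higher ratios, and points give its CPM on a log axis in the Y cells of tdT1, the Xist cells of tdT1, tdT2, WT and TNF-Tg. Open symbols stand for 0 UMIs and are drawn at 3 UMIs. For Akr1c14 the Xist cells (60.7 CPM) lie beyond tdT2 and the Y cells (0.841 CPM) beside WT, whereas Fmod is at 0 UMIs in Xist cells.

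Across the 251 higher genes the counts divided the same way. These genes were picked on the tdT1 sum, which holds both the Xist and the Y cells, and on tdT2, which showed female RNA. The rule thus favours genes high in Xist cells, and the shares over the genes tested do not correct for this. The counts describe the picked genes and test nothing. Against WT, 233 of the 251 were 2-fold higher with an interval off 1 in the Xist cells of tdT1, and 95 of the 251 in its Y cells. Over the genes tested these shares were 8.86% for Xist cells and 3.96% for Y cells. The median log2 ratio of the 251 genes to WT was 2.69 in Xist cells and 0.99 in Y cells. Compared directly within tdT1, 169 of the 251 were 2-fold higher in Xist than in Y cells and 6 were lower, beside 886 (7.14%) and 382 (3.08%) of the genes tested. The Xist cells were also fewer on the LMC side described below, 60.4% (53.2 to 67.3) against 85.3% (81.6 to 88.6) of Y cells. In WT this share was 71.6% (69.6 to 73.5). Some genes were uneven between the sides, such as Col15a1 with 11.8 CPM on the LMC side and 80.6 on the VSMC side of WT. The part of this makeup in the ratios of Y and Xist cells was not tested. The number of female mice in the pool is not given in the sources used here. The part of single mice in this division was not tested. Of the 101 lower genes, 86 were 2-fold lower than WT in Y cells and 96 in Xist cells, beside 5.93% and 5.12% of the genes tested.

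Of the mural and pericyte list, 4 of 10 tested genes were apart and higher (Ngfr, Notch3, Vtn and Postn) and none lower. Over the genes tested 2.02% were apart and higher and 0.814% lower. The list's median log2 ratio was 0.51 in tdT1 and 1.69 in tdT2. Postn, the matrix protein periostin, had 480 CPM in tdT1, 881 in tdT2, and 200 in WT against 193 in TNF-Tg. In tdT1 it was 1228 CPM in Xist cells and 214 in Y cells, the latter within a log2 ratio of 0.10 (0.01 to 0.18) of WT. Vtn, vitronectin, had 37.7, 48.3 and 15.6 CPM in tdT1, tdT2 and WT. In Y cells of tdT1 Vtn was at a log2 ratio to WT of 0.74 (0.49 to 0.99), under 2-fold. Ngfr was at 1.03 there, with an interval of -1.15 to 2.93 that includes 0. The pericyte genes Rgs5, Mcam and Higd1b had at most 3 UMIs in any of these sums, and Pdgfrb, with log2 ratios of 0.49 and 1.08, was not apart. The other tested members, also not apart, were Cspg4, Ndufa4l2 (0.0006 and 1.95), Abcc9 (0.02 and 0.66), Kcnj8 (-0.01 and 0.41) and Des. Des was at 0.21 in tdT1 and lower than WT in tdT2, at -1.95 (-3.02 to -1.07).

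Among 18 collagen genes, Col5a3 and Col15a1 were apart and higher and none was lower, beside 2.02% and 0.814% of the genes tested. Col5a3, a minor fibrillar collagen, had 208, 470 and 96.4 CPM in tdT1, tdT2 and WT, and Col15a1, a basement membrane collagen, 63.4, 176 and 25.99 CPM. In tdT1 the Y cells were near WT for both, at 112 CPM of Col5a3 and 23.3 of Col15a1, and the Xist cells were at 493 and 168 CPM. Medians over the collagens were 0.08 and -0.12. No gene was apart in the lists of elastic fibre and microfibril genes (19 tested), adventitial progenitor surface genes (12) and Hox and limb position genes (20). The same held for nuclear genes of the respiratory chain (27), heat shock genes (16) and nuclear-retained non-coding RNAs (7). At the shares over the genes tested, lists of this size would hold few or no genes apart, so this says little about them.

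Growth factor genes moved singly. Of 24 tested growth factors and receptors, Vegfa, Hgf and Fgf10 were higher and Edn1 lower, beside 2.02% and 0.814% of the genes tested. Vegfa, which drives vessel growth, had 341 CPM in tdT1, 321 in tdT2, and 153 in WT against 139 in TNF-Tg, and both tdT libraries were just over 2-fold above WT. Its level was 318 CPM in Y cells and 408 in Xist cells of tdT1. Within tdT1 the higher level was thus present in cells of either sex. Igfbp3, a carrier of insulin-like growth factors, had 175, 162 and 58.1 CPM, and Pappa, a protease that releases those factors from their carriers, 3.87, 9.37 and 0.618 CPM. Kdr, the main VEGF receptor and an endothelial gene, had 53, 34 and 12 UMIs while Cdh5, an endothelial cadherin, had 0, 3 and 1.

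Cytokine and immediate-early genes separated the 2 tdT libraries from each other. The 32 tested immediate-early and dissociation genes had a median log2 ratio to WT of 2.04 in tdT1 and 0.14 in tdT2, and 26 were at least 2-fold higher in tdT1 against 3 in tdT2. Over the genes tested these shares were 6.12% and 8.7%, so that the count in tdT2 lay near the background. Egr1 had 4542 CPM in tdT1, 774 in tdT2 and 476 in WT, and Fos had 4841, 1792 and 1191. Egr3 and Gadd45b were the members apart in both, beside 2.02% of the genes tested that were apart and higher. Egr3 had 18.5, 5.05 and 0.961 CPM and Gadd45b 80.8, 8.65 and 2.51 CPM in tdT1, tdT2 and WT. The median of this list was 2.08 in the Y cells and 1.90 in the Xist cells of tdT1. The NF-kB list had medians of 0.90 and -0.09, and of 14 tested genes 6 were at least 2-fold higher in tdT1 and 2 in tdT2. Icam1 alone was apart and higher, beside the same 2.02% of the genes tested.

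Of 19 tested cytokines and chemokines, Tnfaip6 and Lif were higher and Cxcl13 and Ccl8 lower in both tdT libraries. Over the genes tested these shares were 2.02% and 0.814%. Tnfaip6, a hyaluronan-binding protein induced in inflammation, had 636 CPM in tdT1, 269 in tdT2, and 106 in WT against 273 in TNF-Tg, so tdT2 was above WT and near TNF-Tg. In Y cells of tdT1 it was 678 CPM. Lif, a cytokine of the interleukin-6 family, had 15.4, 20.9 and 6.97 CPM. Interleukin-6 itself had 110 CPM in tdT1, 2.16 in tdT2 and 2.64 in WT, and Cxcl1 had 602, 44.0 and 47.0 CPM, so these were high in tdT1 alone.

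The signalling genes divided between those that were 2-fold over WT in the Y cells of tdT1 as well and those that were not. Icam1, the adhesion molecule that leukocytes bind, had 39.7 CPM in Y cells and 106 in Xist cells, against 40.4 in tdT2 and 17.5 in WT. Lif in Y cells was at a log2 ratio to WT of 1.33, Fgf10, a fibroblast growth factor, at 1.15, and Id4, an inhibitor of helix-loop-helix transcription factors, at 1.19, each with an interval off 0. Thbs1, the matricellular protein thrombospondin, was at 2.86 and Bhlhe41, a clock repressor, at 1.08. For these genes the higher level was present in the Y cells, which share the sex of WT. Such cells were seen in tdT1 alone, whose nozzle, sequencer and gene list differed from those of the other libraries. The parts of sex and processing were not tested. TNF-Tg, also male and scatter-sorted, had 45.7 CPM of Icam1, 11.4 of Bhlhe41 and 3.95 of Thbs1. These were above WT (17.5, 4.91 and 0.618 CPM) and near tdT2 (40.4, 11.5 and 4.33 CPM). Id4 had 17.0 CPM in TNF-Tg and 12.1 in WT, Fgf10 6.26 and 6.56, and Lif 3.21 and 6.97. Lif went the other way between the classes, with 17.5 CPM in Y cells and 10.4 in Xist cells. Its log2 ratio to WT in Xist cells was 0.58 (-0.04 to 1.16), an interval that includes 0. Igfbp3 was at 0.85 (0.72 to 0.97) in Y cells and thus under 2-fold, with 104.5 CPM against 338 in Xist cells. Hgf, hepatocyte growth factor, had 2.24 CPM in Y cells and 13.04 in Xist cells, against 2.99 in WT. Kdr had 1.12 CPM in Y cells and 14.5 in Xist cells, and Pappa 1.26 and 10.8, and the Y-cell intervals of the last 3 genes included a ratio of 1.

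**Figure D3:**
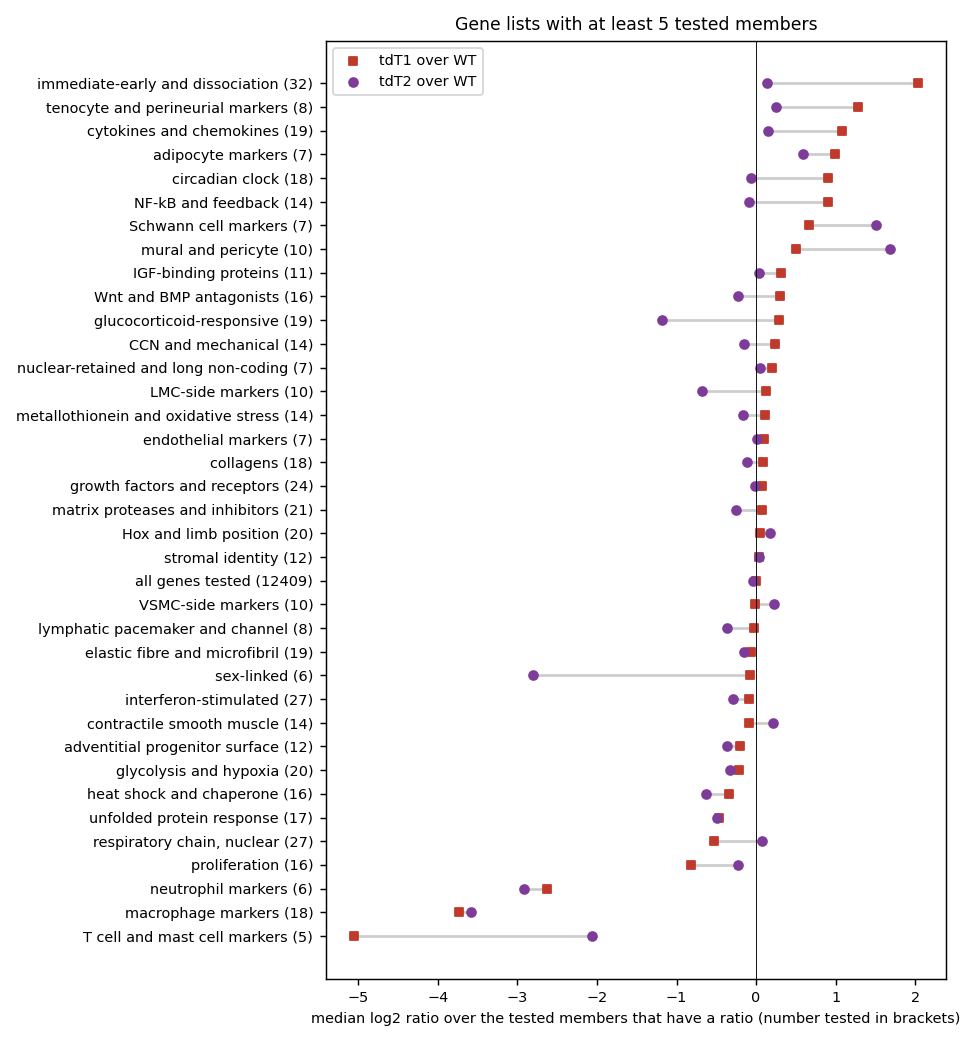
Each row is a gene list with at least 5 tested members, and the points give the median log2 ratio to WT over its members in tdT1 (squares) and tdT2 (circles). Stromal identity genes lie at 0.04 in both, immediate-early genes at 2.04 and 0.14, and macrophage markers at -3.73 and -3.58.

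Most of the genes lowest against WT are best known from leukocytes. Pf4, a chemokine of platelets and resident macrophages, had 1.42 CPM in tdT1, 0 in tdT2, and 31.1 in WT against 45.8 in TNF-Tg. Cd74, the invariant chain of MHC class II, had 4.72, 1.44, 70.9 and 28.4 CPM. Lyz2, lysozyme of macrophages and neutrophils, had 4.15, 1.44, 58.9 and 32.6 CPM. S100a8 and S100a9, the neutrophil calprotectin pair, had 1.13 and 1.89 CPM in tdT1, 2.16 and 2.16 in tdT2 and 37.3 and 51.4 in WT, with edgeR adjusted p-values of 0.0024 and 0.0016. Each of these genes was below both scatter-sorted libraries in both tdT libraries. In WT 286 of the 1085 S100a8 UMIs and 421 of the 1498 S100a9 UMIs came from 1 cell each.

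By list, 17 of 18 macrophage markers, 2 of 6 tested neutrophil markers and 4 of 5 tested T cell and mast cell markers were lower and none higher. The 4 were the mast cell protease genes Cpa3, Cma1, Mcpt4 and Tpsb2, and no T cell gene was apart. Of the 10 genes of that list 5 passed the filter. Over the genes tested 0.814% were lower and 2.02% higher. Medians of the macrophage markers were -3.73 in tdT1 and -3.58 in tdT2. Their summed level was 36.6 CPM in tdT1, 11.5 in tdT2, and 392 in WT against 276 in TNF-Tg, with 9 of 18 at 0 UMIs in tdT2. The remaining genes of the 15 lowest were Hp, Prg4, Fcer1g, Ccl6, C1qa, C1qb, C1qc, H2-Ab1, H2-Aa and Lcn2. The complement genes C1qa, C1qb and C1qc had 1.60, 1.04 and 1.89 CPM in tdT1, 1.44, 1.44 and 0 in tdT2 and 24.6, 25.9 and 16.2 in WT. The mast cell protease Cpa3 had 0.377, 0.721 and 12.5 CPM in tdT1, tdT2 and WT, and Mcpt4 had 0.849, 12.3 and 49.8. Mcpt4 and Cma1 belong to a protease family of close sequence, whose reads may be shared.

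Leukocyte RNA was found in many WT stromal cells and unevenly, at a median of 5 UMIs of the leukocyte lists and up to 1104 in 1 cell. Of 2109 WT stromal cells 1063 (50.4%) held at least 5 UMIs of the leukocyte lists, against 5 of 732 in tdT1 and 0 of 241 in tdT2. The WT library itself also held more leukocytes than the tdT libraries, as Ptprc-positive cells made up 53.1% of WT, 15.5% of tdT1 and 31.9% of tdT2. TNF-Tg had 60.0% Ptprc-positive cells, more than WT. Of its 1094 stromal cells, 110 (10.1%) held at least 5 UMIs of the leukocyte lists. Summed over stromal cells those lists had 361 CPM in TNF-Tg and 601 CPM in WT. With every cell thinned to 2000 UMIs, C1qa was found in 4.03% of WT stromal cells and 63.8% of the Ptprc-positive, Dcn-low WT cells, and in 0.297% and 13.5% of those in tdT1. Among Ptprc-positive, Dcn-low cells of TNF-Tg C1qa was found in 19.6%, and Fcer1g in 93.5% against 93.7% in WT. The leukocytes of the 2 libraries thus differed in the listed genes, and a link between the 2 shares was not tested. The thinning left out 98 WT, 58 tdT1 and 30 tdT2 stromal cells. Leaving out the cells with at least 5 such UMIs, named below as cells holding leukocyte UMIs, lowers the genes of these lists in WT by construction. Cells with fewer than 5 stayed in, and of the 23 lower genes in the lists 14 were still lower. Of the lower genes outside the lists, 63 of 78 were still lower by the same rule without those cells.

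**Figure D4:**
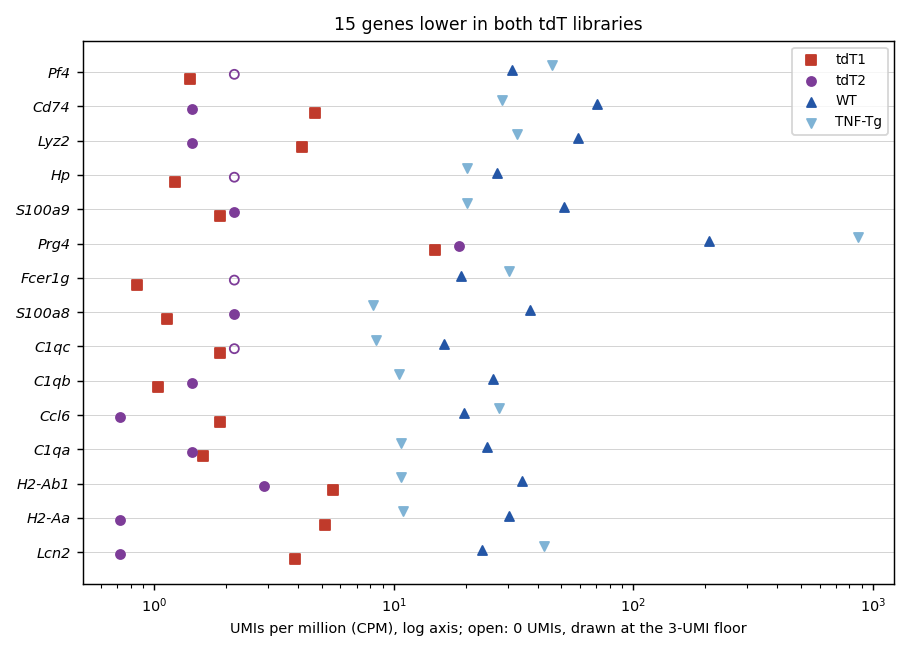
Each row is 1 of the 15 genes with the firmest lower ratio, with its CPM on a log axis in tdT1, tdT2, WT and TNF-Tg. Both tdT libraries lie to the left of WT for the 15 genes, and Prg4 has its highest level in TNF-Tg, at 864 CPM.

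Beyond leukocyte genes, stromal genes were lower in the reporter-sorted cells than in WT. Prg4, lubricin, a lubricating glycoprotein of joints and fascia, had 14.9 CPM in tdT1, 18.7 in tdT2 and 207 in WT. It was 13.9-fold and 11.0-fold lower than WT (edgeR adjusted p = 0.0055), and its level was 14.2 CPM in Y cells and 16.02 in Xist cells of tdT1. Without cells holding at least 5 leukocyte UMIs its WT level was 191 CPM. In cells thinned to 2000 UMIs Prg4 was found in 19.1% of WT, 2.82% of tdT1 and 4.74% of tdT2 stromal cells, and in 0.151% of Ptprc-positive, Dcn-low WT cells. Unthinned, it was found in 45.0% of WT, 8.74% of tdT1 and 6.22% of tdT2 stromal cells.

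Edn1, endothelin, a vasoconstrictor peptide, had 71.9 CPM in tdT1, 22.3 in tdT2, and 240 in WT against 47.3 in TNF-Tg. It was 3.34-fold and 10.8-fold lower than WT, and the TNF-Tg library lay between tdT1 and tdT2. In tdT1 the Y cells had 94.6 CPM and the Xist cells 14.5. Adm, the vasodilator adrenomedullin, had 69.5, 85.8, 267 and 372 CPM in tdT1, tdT2, WT and TNF-Tg, and was below both references. Cxcl13, which attracts B cells, had 164, 213 and 532 CPM in tdT1, tdT2 and WT. Comp, a cartilage matrix protein, had 1.51, 0.721, 11.5 and 1.73 CPM in tdT1, tdT2, WT and TNF-Tg. For Comp TNF-Tg was thus also below WT and near tdT1. None of Edn1, Adm, Cxcl13, Ccl8 and Comp passed edgeR at an adjusted p under 0.01, the values being 0.33, 0.37, 0.88, 0.88 and 0.10. Ccl8, a monocyte chemokine, had 60.6, 97.3 and 201 CPM in tdT1, tdT2 and WT, and in thinned WT cells was found in 61.2% of Ptprc-positive, Dcn-low cells against 26.3% of stromal cells. Without cells holding at least 5 leukocyte UMIs its WT level was 148 CPM, and its log2 ratio in tdT2 was -0.60 (-0.86 to -0.34), no longer 2-fold.

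Glucocorticoid-responsive genes had a lower median in tdT2 than in tdT1. Of 19 tested members, Fkbp5, Zbtb16, Pdk4 and Lcn2 were lower in both tdT libraries and none was higher, beside 0.814% and 2.02% of the genes tested. The median of the list was 0.29 in tdT1 and -1.18 in tdT2, and 12 members were at least 2-fold lower and 0 higher in tdT2, against 5 lower and 4 higher in tdT1. Over the genes tested 6.79% were at least 2-fold lower in tdT2 and 5.44% in tdT1. Fkbp5, a chaperone of the glucocorticoid receptor, had 47.5 CPM in tdT1, 20.2 in tdT2, and 120 in WT against 50.7 in TNF-Tg. Zbtb16, a transcription factor induced by glucocorticoids, had 83.3, 19.5, 171 and 17.2 CPM. Both genes were thus lower in TNF-Tg than in WT as well, and for Zbtb16 the TNF-Tg level was below both tdT libraries. Pdk4 had 3.49, 4.33, 9.75 and 3.87 CPM in tdT1, tdT2, WT and TNF-Tg, and Lcn2 had 3.87, 0.721, 23.3 and 42.4. The part of the day of experiment was not tested.

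Further genes apart in the pathway lists were few. With 2.02% of the genes tested higher and 0.814% lower, a lone gene apart says little about its list. Sdf2l1, a chaperone of the endoplasmic reticulum, was the lower member of 17 unfolded protein response genes, at 18.9, 21.6 and 75.3 CPM in tdT1, tdT2 and WT. Iigp1, an interferon-inducible GTPase, was lower among 27 interferon-stimulated genes, at 32.6, 20.9 and 75.2 CPM. TNF-Tg had 33.5 CPM of Iigp1, near tdT1, and 85.5 CPM of Sdf2l1, above WT. Id4, the inhibitor of helix-loop-helix transcription factors, was the higher member of 16 tested genes listed under Wnt and BMP antagonists. Others were Bhlhe41 of 18 circadian clock genes and Thbs1 of 14 CCN and mechanical genes. Adamts4 of 21 matrix proteases and Kcnq5 of 8 lymphatic pacemaker and channel genes were higher as well. The ratios of these higher members to WT ran from 2.27-fold for Bhlhe41 in tdT1 to 10.1-fold for Thbs1 in tdT1, and Kcnq5 rested on 12, 3 and 7 UMIs. TNF-Tg had 4.36 CPM of Adamts4 and 0.494 of Kcnq5, against 0.961 and 0.240 in WT and 3.60 and 2.16 in tdT2.

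A few markers of other cells were higher than WT, on small counts, beside 2.02% of the genes tested. Of the erythroid list, Hba-a1, Hbb-bs and Hbb-bt were higher than WT, but 497 of the 521 Hbb-bs UMIs of tdT1 and 2978 of the 3091 of TNF-Tg came from 1 cell each, and TNF-Tg exceeded tdT1 and tdT2, at 254 CPM against 49.2 and 12.3. Of 7 tested Schwann cell markers Cdh19 and Ncam1 were higher, at 27, 4 and 7 UMIs and 40, 8 and 28 UMIs in tdT1, tdT2 and WT. Cdh19 was thus 10.6-fold and 12-fold over WT. Pparg was higher of 7 adipocyte markers, at 58, 7 and 47 UMIs. Of 8 tenocyte and perineurial markers, Fmod, Thbs4 and Cldn1 were higher and Comp lower, with Thbs4 at 9.71-fold and 3.50-fold on 106, 5 and 30 UMIs. Their part in the other results was not tested. None of 3 keratinocyte, 2 skeletal muscle and 16 proliferation genes was apart.

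The stromal cells were also divided by the balance of 10 LMC-side and 10 VSMC-side marker genes. A cell's score was the mean ln(1 + UMIs per 10000) of the first minus that of the second, and cells above 0 were called LMC-side. These markers come from cluster tables that the study made on these samples, and the classes are ranges of a score, not muscle types. LMC-side cells made up 74.3% (71.0 to 77.4) of tdT1, 49.4% (42.9 to 55.9) of tdT2 and 71.6% (69.6 to 73.5) of WT, with 53, 28 and 88 cells within 0.25 of the cut. The LMC-side share of tdT2 was thus below those of tdT1 and WT beyond counting error, and TNF-Tg had 56.1%.

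Within LMC-side cells 180 genes (1.45%) were higher and 73 (0.588%) lower in both tdT libraries. Within VSMC-side cells 200 (1.61%) were higher and 156 (1.26%) lower. Of the 251 genes higher in the whole sums, 137 were higher among LMC-side and 111 among VSMC-side cells, and 45 in both. Cldn11 had its 62 UMIs in tdT1 and 20 in tdT2 in LMC-side cells and none in VSMC-side cells. Postn was also LMC-sided, at 584, 1698 and 248 CPM in LMC-side cells of tdT1, tdT2 and WT. Edn1 was LMC-sided in each library, at 90.1, 43.1 and 299 CPM.

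Whether the difference from WT itself depended on the side was tested in edgeR on 6 sums, 2 sides of 3 libraries, with the library as a block, so that the 1 residual degree of freedom comes from the tdT libraries. Of 11872 genes that are not side markers, 53 (0.446%) had an adjusted p under 0.01, of which 35 (0.295%) had the higher tdT-to-WT ratio in LMC-side cells and 18 (0.152%) in VSMC-side cells. Igfbp3 had 490 and 248 CPM in VSMC-side cells of tdT1 and tdT2 and 8.69 in WT, while in LMC-side cells it had 97.4, 83.5 and 70.7 CPM. Vtn had the same form, with 98.5, 78.1 and 13.2 CPM on the VSMC side and 22.8, 20.9 and 16.2 on the LMC side. Cxcl13 had 174, 114 and 595 CPM on the LMC side and 131, 320 and 282 CPM on the VSMC side. The edgeR adjusted p of this interaction was 1.9e-07 for Vtn and 0.0012 for Cxcl13. Sfrp2, a secreted Wnt modulator named here after its values were seen, had 187 and 7.51 CPM on the VSMC side of tdT1 and tdT2 against 509 in WT, and 295, 358 and 242 on the LMC side.

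**Figure D5:**
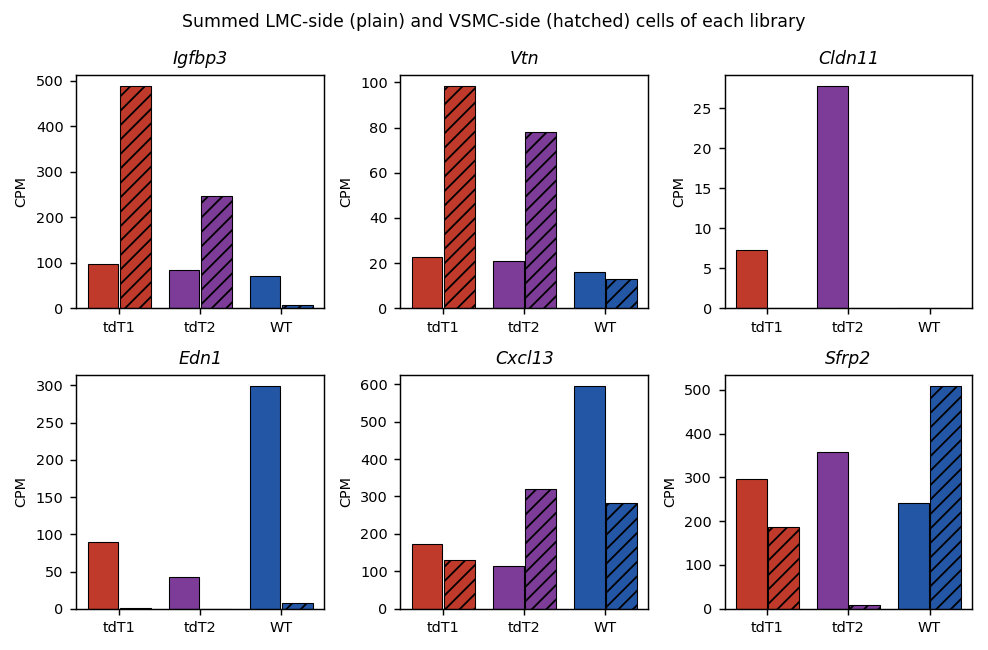
Bars give the CPM of 6 genes in the LMC-side (plain) and VSMC-side (hatched) sums of tdT1, tdT2 and WT, with 1 value per sum and no error bar. Igfbp3 and Vtn are high on the VSMC side of both tdT libraries, Cldn11 is seen on the LMC side, Sfrp2 is lowest on the VSMC side of tdT2, and Edn1 is highest in LMC-side cells of WT.

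The 6 genes that differed most between tdT1 and tdT2 were Atp6v0c, Rnasek, Nme2, Fdx2, Mup20 and Mrpl53. Nme2, a nucleoside diphosphate kinase, had 81 UMIs in tdT1, 1365 in tdT2 and 36719 in WT. Its level was 7.64 CPM in tdT1, 984 in tdT2 and 1261 in WT, so tdT1 alone was apart. Atp6v0c had 0.566, 177 and 178 CPM. Over the genes with at least 10 CPM in WT, 26 were 8-fold or more lower in tdT1 and within 2-fold of WT in tdT2. Of the 26, 20 overlap, on the same strand in GENCODE M21, a gene that the list of tdT1 alone holds. The share of such overlaps over the genes tested is not given here, so the 20 stand without a background. Atp6v0c is not among the 20. Mup20 had 28 UMIs in tdT2, in 1 cell.

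Against TNF-Tg in place of WT, 418 genes (3.40%) were higher and 339 (2.75%) lower in both tdT libraries. Of the 251 genes higher than WT, 141 were also higher than TNF-Tg, and 50 of the 101 lower genes were also lower. Rxfp1, Akr1c14 and Greb1 were above both references, and Cd74, Lyz2, Prg4 and Adm below both.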

How the data were processed

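The authors aligned and counted each library with Cell Ranger (3.1.0 for tdT1, 6.0.1 for the others) against mm10 and deposited filtered matrices of raw UMI counts per gene and cell, with no cell annotation. The submitters' processing notes also name Seurat 4.0.3. Members and gene lists were chosen with earlier results of these data known. Cells were kept by Dcn, Ptprc and mitochondrial UMIs, without a doublet caller, and counts of 30406 shared Ensembl IDs were summed per library.

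Sums were scaled by TMM and filtered with filterByExpr in edgeR 4.0.16 (R 4.3.3). Ratios to WT carry exact conditional binomial intervals (95%), counts of 0 were set to 3 UMIs, and no ratio was read where both sums had 3 or fewer UMIs. The edgeR quasi-likelihood test compared tdT1 and tdT2 with WT, with Benjamini-Hochberg adjustment. With 1 WT library, p-values measure the spread between 2 pooled libraries, not between mice. DESeq2 1.42.0, other scalings, filters and cell limits were alternatives, and scripts were tested on simulated data. The split of tdT1 by sex-linked UMIs was chosen after seeing the data. Shares carry Clopper-Pearson intervals. Coordinates are those of GENCODE M21 (GRCm38).

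Named genes are the 15 genes apart in each direction with the interval bound farthest from 1, up to 4 apart members of each list, the 6 genes that differ most between tdT1 and tdT2, the 5 with the smallest adjusted p in each direction, and checks of sort, sex and rule. A gene that this rule names is not reported here.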

Additional observations from a re-analysis of the deposited data

Results flagged for a closer look

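The ratio of tdT to WT differed between LMC-side and VSMC-side cells for 6 named genes in edgeR's quasi-likelihood test of the interaction (adjusted p under 0.01). The log2 difference, LMC side minus VSMC side, was -5.03 for Igfbp3, -2.32 for Vtn and -1.47 for Cxcl13, whose ratio to WT was thus higher on the VSMC side. It was 2.86 for H2-Ab1, which had 23.6 CPM in LMC-side and 75.9 CPM in VSMC-side cells of WT and at most 6.39 CPM in the tdT sums. It was 3.82 for Hbb-bs and 15.25 for Mup20, values that rest on 497 UMIs of 1 tdT1 cell and 28 UMIs of 1 tdT2 cell. The test has 1 residual degree of freedom.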

How the results depend on the processing

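No paired analysis was possible because WT has 1 library, so the groups share fewer than 2 replicate numbers. The counts of genes apart (251 higher, 101 lower) were 428 and 230 at 1.5-fold, 87 and 33 at 4-fold, 92 and 35 with a mean of at least 10 CPM, and 418 and 339 against TNF-Tg. They were 431 higher without the interval, 132 higher on thinned sums and 156 lower in VSMC-side cells. Leaving out either tdT replicate gave 692 to 716 higher and 554 to 601 lower. With the sex-linked split, chosen after seeing the data, Y cells of tdT1 alone gave 491 and 736, and Xist cells 1099 and 635. The edgeR counts (3 higher, 9 lower) were 0 and 0 under total-UMI scaling, with a mean of at least 10 CPM, or without cells holding leukocyte UMIs. At an unadjusted p under 0.05 those settings gave 297 and 132, 133 and 42, and 325 and 149. They were 61 and 41 without a filter, 13 and 17 at 0.05, 1 and 2 at a Dcn limit of 10, 68 and 51 in VSMC-side cells, and 1 and 0 with WT and TNF-Tg as 1 group (501 and 323 unadjusted). DESeq2 gave 19 higher and 8 lower, with 963 adjusted p-values NA. The interaction count of 53 was 26 under total scaling and 81 at 0.05. The WT LMC-side share was 73.8% in thinned cells. Total-UMI scaling shifts the log2 ratios by 0.05 in tdT1 and 0.12 in tdT2. Of 1500 values of named genes under alternatives, 273 moved by more than the standard deviation of the 2 tdT log2 ratios. Reversal was read for genes apart only, and 14 of their 1294 values reversed. Against TNF-Tg the log2 ratios were 1.27 for Zbtb16, 0.051 for Pdk4, -0.30 for Hbb-bt, -2.56 for Hba-a1 and -3.33 for Hbb-bs. With WT and TNF-Tg together Hba-a1 was -1.40 and Hbb-bs -1.99. In Y cells Col15a1 was -0.16, Hgf -0.41, Ncam1 -1.78 and Cldn1 -0.29. In Xist cells Hba-a1 was -1.49 and Hbb-bs -2.94, and in VSMC-side cells Hbb-bs was -0.58. The cause was not tested. Depth limits tdT2 most: 110 of the higher genes rest on 10 or fewer of its UMIs, and 64 of the lower genes on 3 or fewer.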
